A study of Mus musculus with 24 samples.

Results

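The erythroid transcription factors are the DNA-binding proteins and their partners that commit blood progenitors to the red cell fate and switch on the genes of the red cell. The 10 genes described here were chosen by name, Klf1, Gata1, Gata2, Tal1, Nfe2, Lmo2, Ldb1, Zfpm1, Bcl11a and Gfi1b, out of 37008 distinct gene names on the array, and their 18 probes were found by the gene name in the scanner files. Male Erfe-/- mice gave RNA of liver and of bone marrow, which was hybridised to 24 single-colour Agilent arrays. Tissues were taken at 0, 24 and 48 h after blood was drawn by retro-orbital puncture. The 2 tissues and 3 times make 6 groups of 4 arrays. The labels do not say whether liver and marrow arrays of the same replicate number are from the same mouse. The main fits did not pair them. All groups carry the Erfe-/- genotype, the loss of erythroferrone, a hormone that erythroblasts release to lower hepcidin in the liver. The 0 h mice, labelled as controls, are the only baseline, so the changes below are changes over time in Erfe-/- mice, and no wild-type mice were analysed here. Strain, age and the volume of blood drawn are not given in the sources used here.

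GATA1 and GATA2 bind the same DNA motif, and in the textbook account GATA1, together with its cofactor FOG1 (Zfpm1), replaces GATA2 as progenitors mature into erythroblasts. TAL1 binds DNA with an E-protein partner and is bridged to GATA factors by the adaptors LMO2 and LDB1, while KLF1 recognises CACCC boxes and activates adult globin, haem and membrane genes. BCL11A represses fetal-type globin genes, GFI1B represses transcription in erythroid and megakaryocytic precursors, and NFE2 pairs with small Maf proteins at globin control regions and in platelet formation. After blood loss, erythropoietin expands the erythroblast compartment of marrow and, in mice, of spleen.

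The promoters of 4 factors are shown because Klf1, Gata1, Gfi1b and Tal1 followed one another most closely over the marrow arrays, as described below. The sequences are the 250 bases before a RefSeq start site on GRCm38.p6, written 5′ to 3′ on the strand of the gene, and capitals mark matches to the GATA motif (AGATAA or its variant AGATAG, and TGATAA or its variant TGATAG), the CACCC box (CCNCNCCC), an E-box (CAGATG) and the NF-E2 core (TGAGTCA), each searched on both strands.
Klf1, chr8:84901732-84901981, plus strand: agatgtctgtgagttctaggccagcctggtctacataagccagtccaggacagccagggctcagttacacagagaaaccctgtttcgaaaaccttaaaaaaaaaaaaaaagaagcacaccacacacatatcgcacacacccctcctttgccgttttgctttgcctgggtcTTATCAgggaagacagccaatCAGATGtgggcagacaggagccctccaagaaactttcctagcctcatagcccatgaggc
Gata1, chrX:7967911-7968160, minus strand: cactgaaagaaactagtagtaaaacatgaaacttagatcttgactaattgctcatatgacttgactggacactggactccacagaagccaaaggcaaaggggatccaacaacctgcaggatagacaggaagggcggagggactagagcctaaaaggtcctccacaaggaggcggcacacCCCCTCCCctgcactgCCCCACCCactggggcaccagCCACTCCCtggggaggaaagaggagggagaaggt
Gfi1b, chr2:28621983-28622232, minus strand: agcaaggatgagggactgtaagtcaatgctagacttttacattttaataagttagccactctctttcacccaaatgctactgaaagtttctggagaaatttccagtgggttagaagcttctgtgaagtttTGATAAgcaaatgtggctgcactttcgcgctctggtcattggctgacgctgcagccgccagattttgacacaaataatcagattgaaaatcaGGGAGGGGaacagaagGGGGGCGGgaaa
Tal1, chr4:115056176-115056425, plus strand: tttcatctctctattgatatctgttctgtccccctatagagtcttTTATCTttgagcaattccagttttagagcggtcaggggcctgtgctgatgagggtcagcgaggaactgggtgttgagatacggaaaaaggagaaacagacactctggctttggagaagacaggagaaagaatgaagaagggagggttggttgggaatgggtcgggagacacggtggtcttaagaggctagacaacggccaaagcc

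The Klf1 stretch held 1 GATA match that began 80 bases before the start and 1 E-box match 59 bases before it. The Gfi1b stretch held 1 GATA match at 120 bases and CACCC matches at 28 and 12 bases before the start. The Gata1 stretch had 3 CACCC matches, at 71, 55 and 34 bases, and the Tal1 stretch shown had a GATA match at 205 bases. Tal1 has 2 start sites. The stretch of the other, not shown, held 0 GATA matches and 4 CACCC matches, at 248, 201, 199 and 194 bases. Of the 10 factors, 8 matched the promoter table, with 12 start sites, and Lmo2 and Nfe2 did not. A GATA match was found at 4 of the 12, in 1 start site each of Klf1, Tal1, Ldb1 and Gfi1b, and 26.5% of all 32851 promoter stretches of this length hold one. A CACCC match was found at 10 of 12, against 45.9% of all stretches. The N of that pattern is any base, so a match need not hold the letters CACCC, and those of Gfi1b do not. The CAGATG E-box, at 1 of 12, occurs in 14.4% of all, and the NF-E2 core, at 0 of 12, in 4.46%. Matches of the GATA motif and the CACCC box did not overlap, and a match describes the letters in these stretches, not binding.

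Levels are log2 of the processed signal minus log2 of the 75th percentile of the array, so 0 is the brightness of that percentile and 1 unit is a doubling, and levels of different genes are not compared because probes differ in brightness. The percentile lay between 361.2 and 473.1 intensity units on liver arrays and between 715.0 and 954.7 on marrow arrays. Marker genes matched the tissue labels: Alb (A_51_P160713), serum albumin, lay at 10.12 to 10.65 in liver, and Mpo (A_51_P317460), of neutrophil precursors and chosen for this check after its values were seen, at 7.63 to 8.60 in marrow. The library labelled marrow 24 h replicate 2 stood apart, with a median of 15 hepatocyte transcripts at 12.95% of their mean liver level, against 0.00415 to 0.0453% on the other 11 marrow arrays, so the 24 h changes and counts of the factors in marrow are also given without it. The 2 probes of Erfe were well above background on 0 of 12 livers each, and in marrow on 0 and 1 of 12. Whether they lie in the deleted part of the gene is not given in the sources used here. Arrays were spread over 3 slides, each with 4 arrays of a tissue and every time. The p-values measure the spread between the arrays of a group, and in whole tissue more cells of a type and more RNA per cell cannot be told apart.

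Before phlebotomy, all 10 factors were higher in marrow than in liver. Of these, 7 were well above background on every array, and Gata1, Gfi1b and Bcl11a entered the fit through marrow, so their direction was fixed by the filter. In limma over all 24 arrays, 7 of those 7 passed an adjusted p of 0.05, where 39.6% of the 22781 genes tested did in that direction, and the 4 marrow arrays lay above the 4 livers for each of them, beside 37.8% of all genes. Their differences ran from 1.26 to 6.15 on the log2 scale, against a median of -0.03 over all genes tested. Tal1 (probe A_55_P2106690, mm9 chr4:114744219-114744278) was at 3.92, 3.94, 4.05 and 4.18 in marrow and at -2.15, -2.20, -2.07 and -2.06 in liver, a difference of 6.15 (SE 0.11, adjusted p 1.43e-19 in limma), or 70.9-fold. Klf1 was higher by 5.21 (SE 0.15), Nfe2 by 5.52 (SE 0.40), Lmo2 by 4.47 (SE 0.09) and Gata2 by 3.47 (SE 0.14). These 5 were well above background on 12 of 12 arrays of both tissues.

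The smallest fitted differences were those of Ldb1 and Zfpm1. Ldb1, the adaptor that dimerises to bring distant elements together, was higher in marrow by 1.26 (SE 0.08), or 2.40-fold, with marrow at 1.44 to 1.55 and liver at 0.11 to 0.34. Zfpm1 differed by 1.37 (SE 0.13), or 2.59-fold, and was at 3.43 to 3.83 in liver by probe A_51_P360840 (mm9 chr8:124861053-124861112). The other Zfpm1 probe, A_55_P1987984 (chr8:124861353-124861412), read -2.17 to -2.04 in the same livers and -0.71 to -0.42 in marrow, so both probes placed marrow above liver.

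Gata1, Gfi1b and Bcl11a were near the detection limit in liver. Gata1 (A_55_P2046852, chrX:7536392-7536451), at 4.11 to 4.62 in marrow at 0 h, was well above background on 1 of 4 livers at 0 h, 1 of 4 at 24 h and 0 of 4 at 48 h. Its fitted difference at 0 h, 9.93 (SE 0.43), therefore rests on 3 liver readings that were not well above background. At 48 h the marrow mean of 4.83 was at least 660.5-fold the liver level, where each liver array stands at its own reading or at its detection limit (its dimmest probe well above background), whichever is higher, a mean of -4.54 against a measured mean of -6.02. For Gfi1b (A_51_P370678, chr2:28464982-28465041) the same bound at 48 h was at least 287-fold, with marrow at 3.64 and the liver bound at -4.53. Bcl11a (A_55_P1958275, chr11:24073114-24073173) was well above background on 6 of 12 livers and 12 of 12 marrow arrays.

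**Figure D1:**
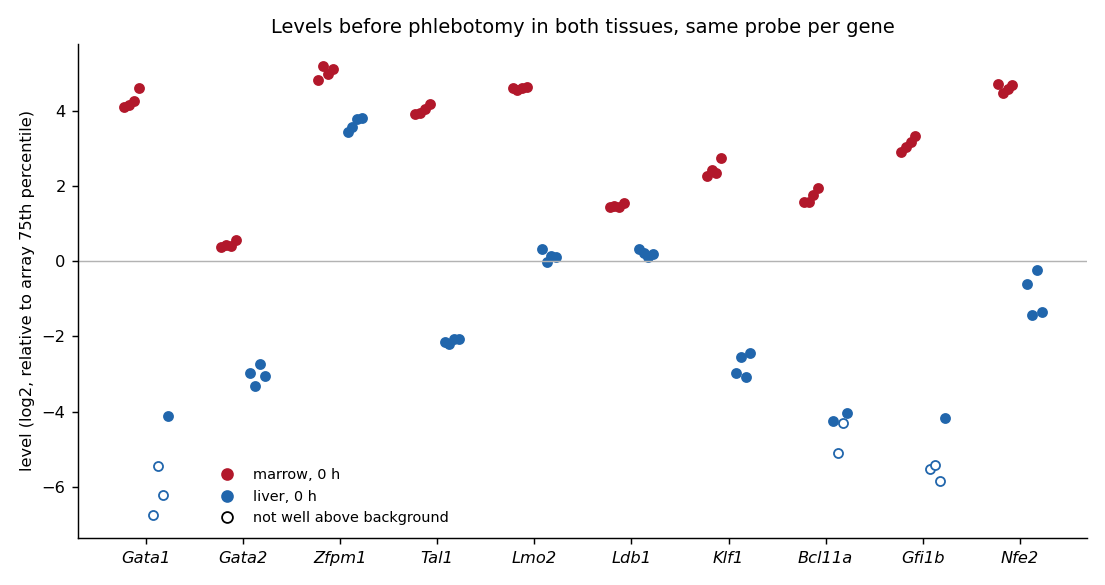
Level of each factor (log2, as a difference from the 75th percentile of each array) on each of the 4 marrow and 4 liver arrays at 0 h, with the same probe in both tissues; open circles are readings not well above background. Every marrow point lies above every liver point of its gene, with the gap narrowest for Ldb1 (1.26) and Zfpm1 (1.37), and open circles occur in liver for Gata1, Bcl11a and Gfi1b.

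In marrow, Tal1 rose by 48 h, and most of the other factors had higher means without passing the test. In limma over 12 arrays with Benjamini-Hochberg adjustment over 21399 genes, 1 of 10 factors passed at 48 h against 0 h, beside 1.23% of all genes. At an unadjusted p under 0.05 there were 9 of 10, 8 higher and 1 lower, beside 10.2% higher and 5.87% lower over all genes. The median change of the factors was 0.42, against 0.00 for all genes, and 9 of 10 were above 0, beside 50.3% of all genes. The groups did not overlap for 7 factors, of which 6 were higher and 1 lower at 48 h, beside 12.7% of all genes in either direction. At 24 h, 0 of 10 passed, beside 1.01% of all genes, with 4 of 10 at an unadjusted p under 0.05 (12.6% of all genes) and 2 of 10 without overlap (8.27%). The median change at 24 h was 0.16, against -0.02. Without marrow 24 h replicate 2 the median was 0.18, with 0 of 10 passing, 3 at an unadjusted p under 0.05 and 2 without overlap. Leaving out any 1 marrow array gave 2 (without 24 h replicate 1) to 5 factors at an unadjusted p under 0.05 at 24 h and 7 to 9 at 48 h. The factors without overlap were then 2 to 4 at 24 h, with 4 without 0 h replicate 4 or 24 h replicate 3, and 7 to 10 at 48 h.

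Tal1 was 3.92, 3.94, 4.05 and 4.18 at 0 h, 4.53, 4.40, 4.26 and 4.62 at 24 h, and 4.74, 4.84, 4.55 and 4.48 at 48 h. All 4 arrays at 24 h and all 4 at 48 h lay above all 4 at 0 h, while the 24 h and 48 h arrays overlapped. The change at 48 h was 0.63 (SE 0.11, adjusted p 0.0203 in limma), or 1.55-fold, and the two-sided exact permutation test gave 0.0286, which is the lowest p possible with 4 against 4 arrays. The change at 24 h was 0.43 (SE 0.11, adjusted p 0.103), and 0.45 (adjusted p 0.152) without marrow 24 h replicate 2. On the 3 slides taken alone, with 1 or 2 arrays a time on each, Tal1 at 48 h was 0.81, 0.64 and 0.29 above 0 h. With the slide as a block the 48 h change was 0.62 and its adjusted p 0.0807, and the call was also lost on leaving out 0 h replicate 1 (adjusted p 0.0764), replicate 2 (0.0858) or replicate 3 (0.0678), or 48 h replicate 1 (0.0676) or replicate 2 (0.0770).

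Its adaptors differed less. Lmo2, the small protein that links TAL1 to LDB1 and GATA1, was 4.62, 4.57, 4.63 and 4.64 at 0 h, 4.62, 4.52, 4.42 and 4.67 at 24 h and 4.81, 4.99, 4.68 and 4.70 at 48 h (A_55_P2503340, chr2:103821857-103821916). The 48 h arrays lay above every array of both earlier times, by a mean difference of 0.18 over 0 h (SE 0.09, adjusted p 0.334) and 0.24 over 24 h (adjusted p 0.605). The second Lmo2 probe, A_51_P223686, gave 0.24 at 48 h, also with all 4 arrays above 0 h. Ldb1 (A_51_P384754, chr19:46107487-46107546) was 1.44, 1.47, 1.45 and 1.55 at 0 h, 1.39, 1.27, 1.42 and 1.61 at 24 h, and 1.85, 1.83, 1.54 and 1.65 at 48 h. At 48 h 3 of 4 arrays cleared the 0 h range, with a change of 0.24 (SE 0.09, adjusted p 0.240), and by the second Ldb1 probe, A_66_P135769, all 4 did (0.22).

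The means of the GATA pair differed from 0 h in opposite directions, and neither gene passed the test. Gata1, the factor that erythroblasts cannot mature without, was 4.11, 4.15, 4.26 and 4.62 at 0 h, 4.56, 4.49, 4.48 and 4.72 at 24 h and 4.89, 5.11, 4.57 and 4.72 at 48 h. Its change at 24 h was 0.28, or 0.30 without marrow 24 h replicate 2. The highest array at 0 h, replicate 4, overlapped the 48 h group, and the change of 0.54 (SE 0.14) had an adjusted p of 0.0876. Without 0 h replicate 4 the change was 0.65, and it then passed with an adjusted p of 0.0395. Under 24 alternatives of processing and left-out arrays, Gata1 at 48 h passed in 2. Its adjusted p there ran from 0.0172 to 0.253 in limma. Gata2 (A_51_P516625, chr6:88156835-88156894), the factor of stem cells, early progenitors and mast cells, was 0.39, 0.45, 0.41 and 0.55 at 0 h, 0.01, -0.08, 0.45 and 0.16 at 24 h, and 0.24, 0.07, 0.04 and 0.38 at 48 h. All 4 arrays at 48 h lay below all 4 at 0 h, and the change was -0.27 (SE 0.12, adjusted p 0.301); at 24 h it was -0.32 (adjusted p 0.298), and -0.24 without marrow 24 h replicate 2. Gata2 was below its 0 h mean on each of the 3 slides at both later times.

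Zfpm1, the zinc finger cofactor of GATA1, was 4.83, 5.19, 4.98 and 5.13 at 0 h, 5.58, 5.48, 5.31 and 5.56 at 24 h, and 5.53, 5.58, 5.32 and 5.65 at 48 h. Both later groups lay above all arrays at 0 h and overlapped each other. Its change was 0.45 at 24 h (SE 0.11, adjusted p 0.0750) and 0.49 at 48 h (SE 0.11, adjusted p 0.0506), the largest at 24 h among the factors by the fitted means. On leaving out 48 h replicate 3 the 48 h change was 0.56 and passed (adjusted p 0.0387). Under the 24 alternatives, Zfpm1 at 48 h passed in 5, with an adjusted p of 0.00435 to 0.174 in limma. Without marrow 24 h replicate 2 the 24 h change was 0.46 (adjusted p 0.131). The second Zfpm1 probe did not follow at 24 h, where its change was -0.04, and at 48 h it gave 0.33 with overlapping groups.

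Klf1 (A_51_P168630, chr8:87428881-87428940) was 2.28, 2.43, 2.36 and 2.75 at 0 h, 2.86, 2.57, 2.62 and 3.01 at 24 h and 2.95, 3.13, 2.76 and 2.96 at 48 h. The 48 h arrays cleared the 0 h range and the 24 h arrays overlapped both. The change was 0.31 at 24 h (SE 0.13, adjusted p 0.354), or 0.37 without marrow 24 h replicate 2, and 0.49 at 48 h (SE 0.13, adjusted p 0.0993). The dimmer Klf1 probe, A_66_P124800 (chr8:87427100-87427159), was 2.0, 1.97, 2.09 and 2.33 at 0 h and 2.87, 2.87, 2.59 and 2.65 at 48 h. That change, 0.65 (SE 0.13), passed when each of the 32225 kept marrow probes was tested on its own (adjusted p 0.0364 in limma), so the call for Klf1 depends on the probe.

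Bcl11a was 1.58, 1.57, 1.76 and 1.95 at 0 h, 1.91, 1.68, 1.88 and 1.84 at 24 h and 2.12, 2.21, 1.90 and 2.0 at 48 h, and its change of 0.34 at 48 h (SE 0.11) had an adjusted p of 0.145. At 24 h it was 0.11, or 0.16 without marrow 24 h replicate 2. The groups overlapped through 0 h replicate 4 and 48 h replicate 3. Of its 5 probes, 4 were well above background on all marrow arrays, and their 48 h changes ran from 0.07 for A_55_P2485639 to 0.35 for A_52_P82704, the widest spread between probes of a factor at that time. The fifth, A_55_P1958270 (chr11:24074059-24074118), was well above background on 0 of 12 marrow arrays and on 7 of 12 livers. Bcl11a is also a factor of B cells, whose 15 measured markers had a median change of -0.43 at 48 h. Without 48 h replicate 1 that median was -0.61, and without 48 h replicate 3 it was -0.25. Of these markers 0 passed the adjusted threshold in limma, and 5 were lower at an unadjusted p under 0.05 (5.87% of all genes). At 24 h their median was -0.65 and 1 fell, Cr2, a complement receptor (-1.14, adjusted p 0.0417), a call lost on leaving out 0 h replicate 2, 3 or 4, 48 h replicate 2 or 4, or any 1 of the 4 arrays at 24 h. Without marrow 24 h replicate 2 the median was -0.56. Of all genes, 1.01% passed at 24 h. The summed level of those markers, in multiples of the 75th percentile, was 80.9 to 134.0 at 0 h, 58.3 to 89.9 at 24 h and 57.6 to 114.1 at 48 h, and its part in the values of Bcl11a was not tested.

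Gfi1b was 2.92, 3.05, 3.19 and 3.34 at 0 h, 3.40, 3.36, 3.08 and 3.51 at 24 h and 3.78, 3.83, 3.38 and 3.57 at 48 h. All 48 h arrays lay above 0 h, and the change was 0.52 (SE 0.13, adjusted p 0.0889) after 0.21 (SE 0.13, adjusted p 0.551) at 24 h, or 0.20 without marrow 24 h replicate 2. Nfe2 (A_55_P2804199, chr15:103078729-103078788) was 4.72, 4.48, 4.59 and 4.69 at 0 h, 4.70, 4.55, 4.80 and 4.80 at 24 h and 4.84, 5.0, 4.93 and 4.92 at 48 h. Its 48 h arrays lay above all 8 earlier arrays, by 0.30 over 0 h (SE 0.08, adjusted p 0.110), while the change at 24 h was 0.09, or 0.14 without marrow 24 h replicate 2.

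**Figure D2:**
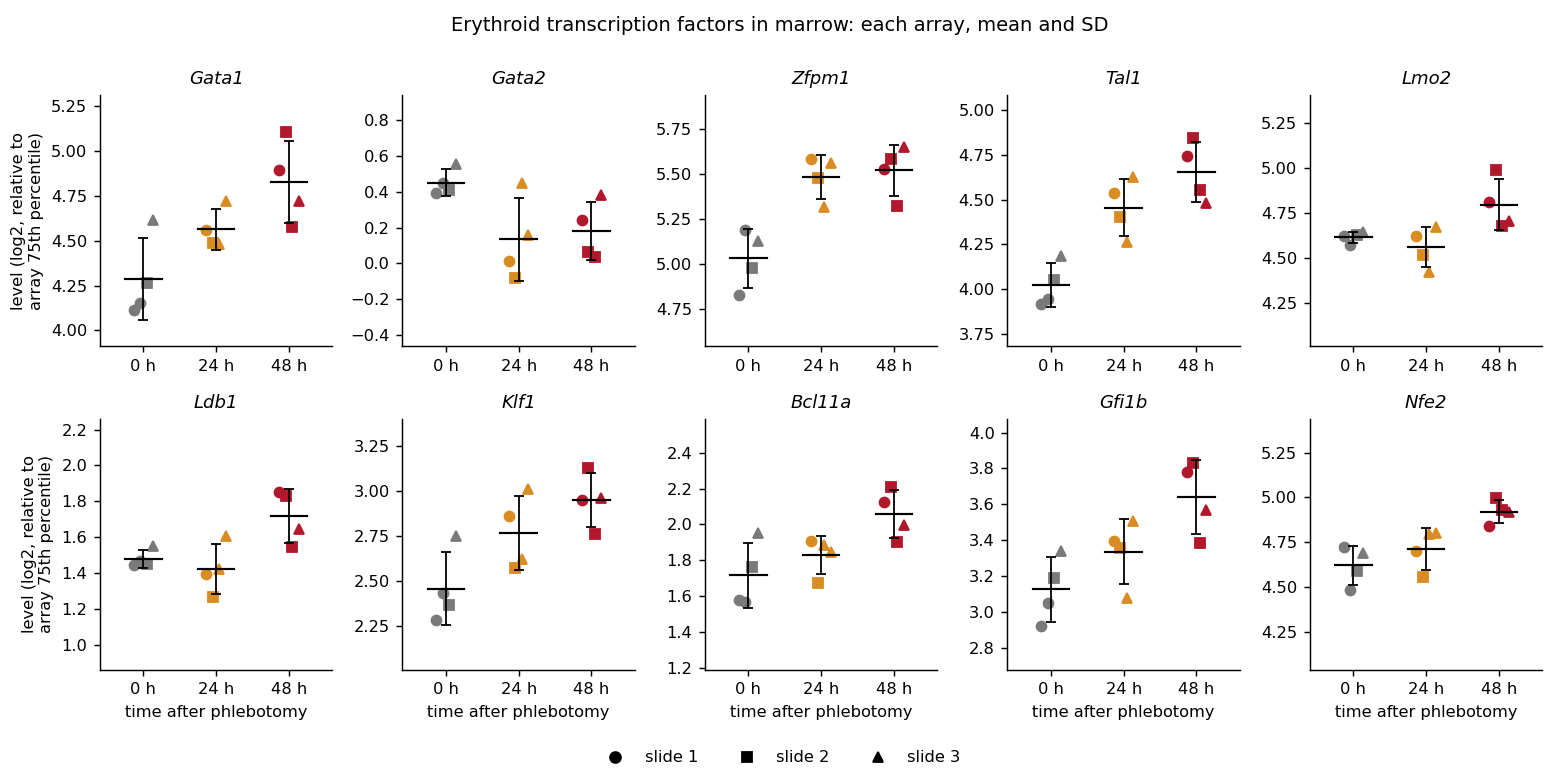
Level of each factor on each of the 12 marrow arrays (log2, as a difference from the 75th percentile of each array) by time after phlebotomy, with symbols for the slide, black bars for the mean and whiskers for the SD of 4 arrays; every panel spans the same height on the log2 scale. Tal1, Zfpm1, Klf1, Gfi1b, Nfe2 and Lmo2 at 48 h lie above all their arrays at 0 h, and Gata2 at 48 h lies below all of them.

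Between 24 and 48 h all 10 factors had positive changes, from 0.04 for Zfpm1 to 0.31 for Gfi1b, where 57.8% of all genes were above 0. In limma 0 of 10 passed, beside 0.00467% of all genes, with 4 of 10 at an unadjusted p under 0.05 (7.68% of all genes) and 2 of 10 without marrow 24 h replicate 2. Leaving out any 1 marrow array gave 1 (without 48 h replicate 2) to 6 (without 0 h replicate 4 or 48 h replicate 3). For Nfe2 and Lmo2 the groups did not overlap (3.71% of all genes). Without marrow 24 h replicate 2, Gata2 was at -0.03, and it was at -0.02 without 48 h replicate 4, as was Zfpm1 without 24 h replicate 3. By 24 h, Tal1, Zfpm1 and Klf1 stood at 0.43, 0.45 and 0.31 above 0 h. Ldb1 and Lmo2 both stood at -0.06 at 24 h, and at -0.0048 and -0.04 without marrow 24 h replicate 2, and at 0.24 and 0.18 at 48 h. Whether the courses differ between genes was not tested.

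A list of erythroid terminal genes, which are markers of the cell type, and the partners of these factors were counted in the same fits. Whether the factors act on the erythroid terminal genes was not tested. Of 39 measured genes of the erythroid terminal list, 6 rose at 48 h and 0 fell, all 39 were above 0, and the median change was 0.43. Over all genes tested, 1.23% passed at 48 h in either direction and 50.3% were above 0. The largest of the 6 were Tfrc, the transferrin receptor (1.02, adjusted p 0.00325 in limma), Rhag of the Rhesus membrane complex (0.74) and Cited4, a coactivator partner (0.74). Leaving out 1 array gave between 2 (without 0 h replicate 1, 2 or 3, or 48 h replicate 1 or 2) and 10 (without 0 h replicate 4), with 3 without 24 h replicate 1 or 48 h replicate 4. At 24 h, 2 of the 39 rose, Tfrc (0.80) and Cited4 (0.72), and the median was 0.08, from -0.01 without 24 h replicate 4 to 0.17 without 0 h replicate 4. That count was 1 without 0 h replicate 2 or 3, and 2 without marrow 24 h replicate 2. Of all genes, 1.01% passed at 24 h. Of 29 partners and cofactors, among them Lyl1, Tcf3, the Ssbp proteins and Mafk, 0 passed in limma at either time, with 3 higher and 1 lower at 48 h at an unadjusted p under 0.05 and a median of 0.02. Of 27 measured other transcription factors of erythroid cells, such as Klf3, Myb and Spi1, 0 passed, with 3 higher and 2 lower unadjusted and a median of -0.01. At that unadjusted threshold, 10.2% of all genes were higher and 5.87% lower at 48 h.

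Markers of other marrow cells that use these factors were counted beside them. At 48 h, 1.23% of all genes passed, 50.3% were above 0, and 5.87% were lower at an unadjusted p under 0.05. Of 10 measured mast cell and basophil markers, 3 fell at 48 h, Mcpt8 (-0.96, adjusted p 0.00409), Prss34 (-0.86) and Ms4a2 (-0.58), 0 of 10 were above 0, and their summed level was 42.5 to 55.5 at 0 h, 31.5 to 48.5 at 24 h and 27.7 to 36.3 at 48 h. Without 0 h replicate 1 or 48 h replicate 2 the count at 48 h was 1. Mast cells and basophils express Gata2, whose 48 h arrays were also below 0 h, and the part of these markers in its values was not tested. Of 16 megakaryocyte markers 0 passed, 15 were above 0 at 48 h with a median of 0.16 (0.02 without 48 h replicate 2 and 0.24 without 48 h replicate 1), and their summed level was 278 to 347 at 0 h and 254 to 443 at 48 h. Of 14 stem and progenitor markers 0 passed, with a median of 0.04 (-0.03 without 48 h replicate 1), and of 15 neutrophil markers 0 passed, with a median of -0.21 (-0.09 without 0 h replicate 1 and -0.34 without 48 h replicate 3) and summed levels of 2458 to 3566 at 0 h and 2351 to 3283 at 48 h. Of 13 monocyte and macrophage markers 0 passed, with 4 lower at an unadjusted p under 0.05, a median of -0.24 and summed levels of 230.6 to 281.1 at 0 h and 179.0 to 259.9 at 48 h. Of 10 hepatocyte markers measured in marrow 0 passed at 48 h, with a median of -0.78 (-0.42 without 0 h replicate 1). Their part in the changes of the factors was not tested.

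In liver, 8 of 10 factors could be tested, and 0 of 8 passed in limma at 24 h, at 48 h or between them, where 0% of the 19649 genes tested did. Gata1 and Bcl11a did not pass the filter on dim probes, and Gfi1b passed it through its 24 h group alone and is left out of the counts that follow. At an unadjusted p under 0.05 there were 3 of the other 7 at 24 h, Tal1 and Gata2 higher and Klf1 lower (10.9% of all genes), 0 of 7 at 48 h (6.44%) and 2 of 7, Klf1 and Tal1, between 24 and 48 h (7.63%). Gfi1b had a fitted change of 1.24 at 24 h (SE 0.34, adjusted p 0.340), from -5.52, -5.43, -5.85 and -4.18 at 0 h to -3.85, -4.24, -4.56 and -3.37, and it lay between -5.29 and -4.77 at 48 h. It was well above background on 1, 4 and 0 of 4 arrays at the 3 times, so the filter fixed the 24 h group as the bright one. Its 24 h mean was at least 1.43-fold the 48 h level, by the bound described above. Its 24 h arrays overlapped 0 h through replicate 4. Over the same arrays the 11 megakaryocyte markers measured in liver had a median change of 0.43 at 24 h, against -0.02 over all genes. Their summed level was 5.54 to 8.39 at 0 h and 7.83 to 10.5 at 24 h. The 12 neutrophil markers had a median of 0.85 and a summed level of 5.90 to 47.4 at 0 h and 22.7 to 80.2 at 24 h. In limma 0 markers of either list passed at 24 h. At an unadjusted p under 0.05, 6 of the 11 megakaryocyte markers and 1 of the 12 neutrophil markers were higher. Their part in the values of Gfi1b was not tested.

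Klf1 in liver, by probe A_66_P124800, was -2.58, -2.38, -2.91 and -2.64 at 0 h, -3.05, -2.99, -3.07 and -3.03 at 24 h and -2.38, -2.65, -2.34 and -2.82 at 48 h. The 24 h arrays lay below all others, by -0.41 against 0 h (SE 0.13, adjusted p 0.354), where 5.53% of all genes had groups that did not overlap. Between 24 and 48 h Klf1 was the 1 of 7 without overlap, at 0.49, beside 3.66% of all genes. The other Klf1 probe, -0.19 at 24 h, had overlapping groups. Gata2 had a change of 0.43 at 24 h (SE 0.15, adjusted p 0.385) and Tal1 of 0.27 (SE 0.10, adjusted p 0.408), both with 3 of 4 arrays above the 0 h range. Nfe2 ranged within groups from -1.42 to -0.22 at 0 h, -1.50 to 0.16 at 24 h and -1.01 to 1.32 at 48 h, and its changes of 0.38 and 0.71 had SEs of 0.53. Lmo2, Ldb1 and Zfpm1 had differences from 0 h between -0.04 and 0.15 at 24 and 48 h by the probes read for them. Their second probes differed more for Lmo2 at 24 h, where A_51_P223686 gave 0.41 (adjusted p 0.459 in limma over all kept probes, with 3 arrays at 24 h), and for Ldb1 at 48 h. There A_66_P135769 gave 0.27 (adjusted p 0.819), with all 4 arrays above those at 0 h.

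The difference between the tissues in these changes was tested as an interaction over 24 arrays, with liver and marrow arrays taken as unpaired. The 10 factors include Gata1, Gfi1b and Bcl11a, whose liver readings were in part not well above background. For these genes the difference at 48 h had an SE of 0.60, 0.38 and 0.34, so it was poorly measured. At 48 h, 0 of 10 factors passed, beside 0.413% of 22781 genes, with Tal1 nearest at a marrow change larger than the liver change by 0.60 (SE 0.15, adjusted p 0.0911). Klf1 differed by 0.60 (SE 0.21) and Zfpm1 by 0.52 (SE 0.19), with adjusted p of 0.248 and 0.264, and 3 of 10 had an unadjusted p under 0.05 (11.0% of all genes). Here Klf1 was read from probe A_51_P168630 in both tissues, with a liver change of -0.11 at 48 h. At 24 h, 0 of 10 passed, beside 0.364% of all genes, with 4 of 10 unadjusted (11.4%), of which Gfi1b rests on livers not well above background at 0 h. Zfpm1 was also among the 4, at 0.50, but its second probe, A_55_P1987984, gave 0.05. Without marrow 24 h replicate 2 again 0 of 10 passed, and the unadjusted count is given only with that array. Gata2, at -0.32 in marrow and 0.43 in liver, differed by -0.75 (SE 0.20, adjusted p 0.105). Without marrow 24 h replicate 2 that value was -0.67 (adjusted p 0.169).

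**Figure D3:**
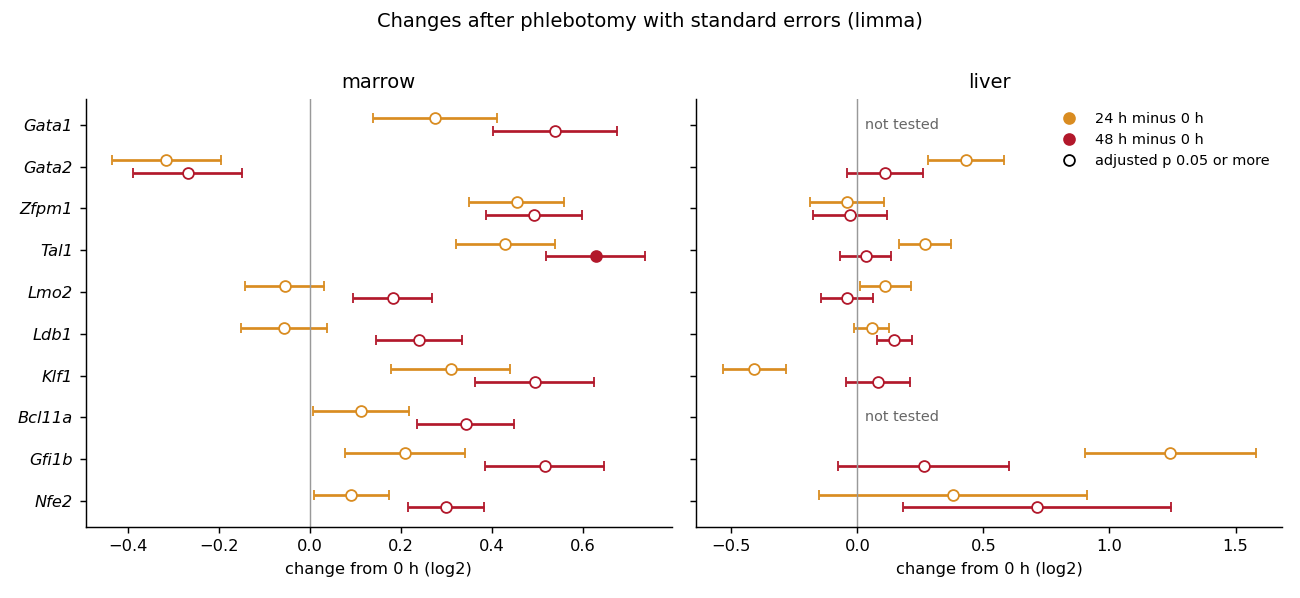
Change of each factor from 0 h (log2) at 24 h and 48 h in marrow (left) and liver (right), with the standard error of limma over 12 arrays of a tissue; filled circles passed an adjusted p of 0.05, and the horizontal scales of the panels differ. Tal1 at 48 h in marrow (0.63) is the single filled circle, and Gata2 lies left of 0 at both times in marrow. Klf1 was read from probe A_51_P168630 in marrow and from A_66_P124800 in liver.

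The factors covaried over the marrow arrays. To keep the time course out of the comparison, each array was taken as its deviation from the mean of its time, and Pearson's r was tested by exact permutation of the arrays within times (two-sided), with Benjamini-Hochberg adjustment over the 45 pairs. The arrays share the scaling and, in part, the slide. The median r was 0.53, with 40 of 45 pairs above 0, and 14 pairs passed. By comparison the median within-time r of a factor with all other genes lay between -0.01 for Zfpm1 and 0.26 for Nfe2. The closest pair was Tal1 and Gfi1b, at 0.91 (exact permutation p 0.00130, adjusted 0.0102), followed by Tal1 with Lmo2 at 0.89, Gata1 with Gfi1b at 0.88, Klf1 with Gata1 at 0.87, Gata1 with Bcl11a at 0.87 and Gata1 with Tal1 at 0.86. Of all other genes, 2.33% had an r of 0.8 or more with Tal1 and 4.04% with Gata1.

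Gata1 and Klf1 passed with 6 partners each, and Tal1, Lmo2 and Gfi1b with 4 each. Ldb1 and Bcl11a each passed with Gata1 and Klf1 and with no other factor. Zfpm1, Nfe2 and Gata2 passed with 0 partners. The 9 pairs of Gata2 had a median r of 0.10, from -0.37 with Lmo2 to 0.34 with Nfe2, and the 36 pairs without it a median of 0.68. Zfpm1 had r of 0.70 with Klf1 and 0.67 with Gfi1b (adjusted permutation p 0.0756 and 0.0906) but 0.50 with Gata1, its partner protein, and Nfe2 reached at most 0.43, with Bcl11a. With slide means also removed, the median r was 0.65 over all pairs and -0.36 over those of Gata2, and 4 arrays a slide were too few for a correlation within a slide. Leaving out 1 array at a time left 5 to 18 passing pairs, with 5 without marrow 0 h replicate 4, 9 without marrow 24 h replicate 1, 24 h replicate 4 or 48 h replicate 3, and 12 without marrow 24 h replicate 2.

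With times pooled, 34 of 45 pairs passed by Pearson's r (permutation test with 100000 resamples) and 31 by Spearman's rho, and these values hold the shared time course as well. The share of pairs among all genes that would pass was not computed, so these counts do not set the factors apart from other genes. Gata1 and Gfi1b had r of 0.95 and rho of 0.94 (permutation p 1e-05, the smallest these resamples can give, and 5e-05), and r of 0.90 without the 2 arrays farthest from the median of Gata1. Tal1 and Gfi1b had r of 0.92 and rho of 0.93 (permutation p 3e-05 for both), and 0.86 without the 2 arrays farthest in Tal1. Gata2 ran against Tal1, with r of -0.65 and rho of -0.61 (permutation p 0.0249 and 0.0401, adjusted 0.0363 and 0.0547), and -0.77 without 2 arrays. Within times that pair was at -0.30 (exact permutation p 0.431), and from -0.45 to 0.09 on leaving out 1 array. With slide means also removed it was at -0.46. The 12 arrays do not settle whether the pair holds within times. Leaving out 48 h replicate 2 lowered the pooled count to 19 pairs.

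**Figure D4:**
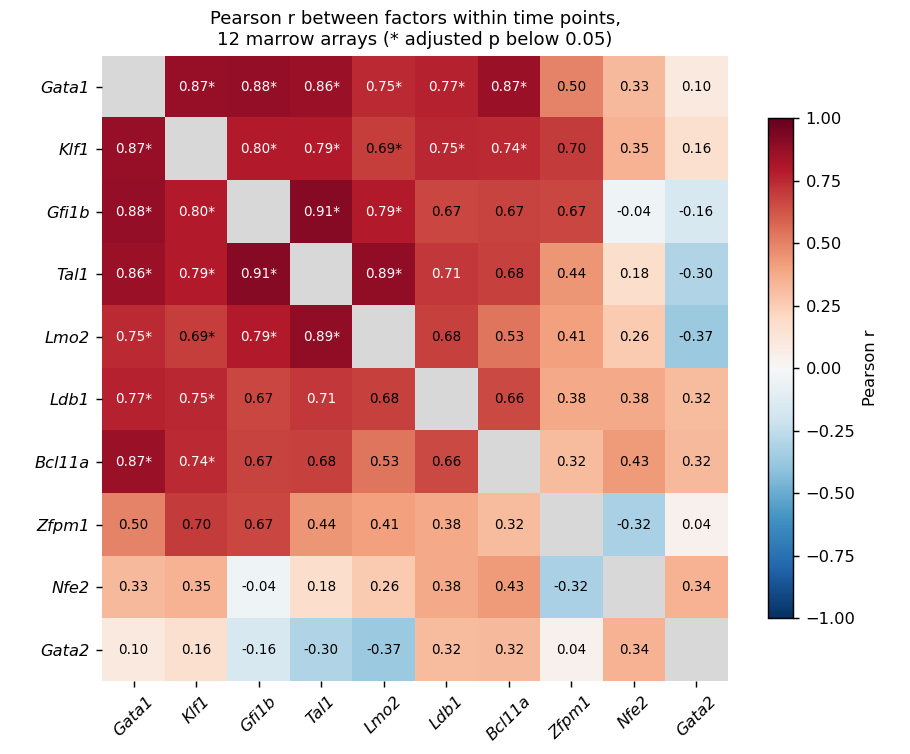
Pearson's r between factors over 12 marrow arrays after subtraction of the mean of each time; the colour scale runs from -1 to 1 and asterisks mark an adjusted permutation p below 0.05 over 45 pairs. The block of Gata1, Klf1, Gfi1b, Tal1 and Lmo2 is dark red with r from 0.69 to 0.91, and the rows of Nfe2 and Gata2 are pale, with no asterisk.

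The factors were also set against an erythroid level, the mean of the 38 genes of the erythroid terminal list with a value on all 12 marrow arrays. That level was 4.32, 4.39, 4.44 and 4.72 at 0 h, 4.58, 4.55, 4.38 and 4.79 at 24 h and 4.99, 5.09, 4.69 and 4.88 at 48 h, highest on 48 h replicate 2 and lowest on 0 h replicate 1. Within times, 7 of 10 factors correlated with it, all positively. Gfi1b reached 0.95 and Gata1 0.93 (exact permutation p 7.23e-05 and adjusted 0.000362 for both), Klf1 0.90 (adjusted 0.00271) and Tal1 0.88 (adjusted 0.00271). Lmo2 was at 0.78, Ldb1 at 0.74 and Bcl11a at 0.70, with adjusted permutation p of 0.00767, 0.0227 and 0.0403. Over all 21031 genes with a value on every marrow array the median was 0.04, and 0.262% of genes were as high as Gfi1b, 0.566% as high as Gata1 and 8.38% as high as Bcl11a.

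Zfpm1 was at 0.66 (exact permutation p 0.0433, adjusted 0.0542), Nfe2 at 0.16 (adjusted 0.712) and Gata2 at -0.02 (adjusted 0.948). Pooled over times, Nfe2 had r of 0.71 and rho of 0.64 with the erythroid level (permutation p 0.0111 and 0.0282), and 0.58 without the 2 arrays farthest from its median. Gfi1b had r of 0.97 and rho of 0.94 pooled (permutation p 1e-05 and 2e-05), and 0.94 without those arrays. Gata2 had r of -0.33 and rho of -0.34 (permutation p 0.293 and 0.285).

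**Figure D5:**
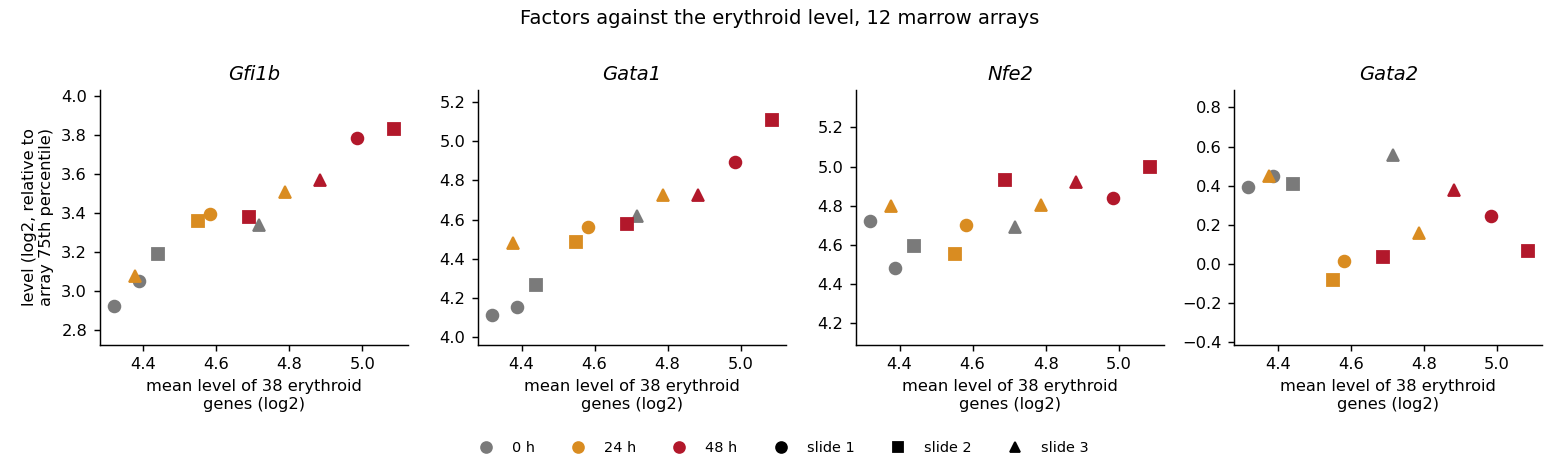
Level of Gfi1b, Gata1, Nfe2 and Gata2 (log2, as a difference from the 75th percentile of each array) against the mean log2 level of 38 erythroid genes, 1 point per marrow array, with colours for the time and symbols for the slide; every vertical axis spans the same height. Gfi1b and Gata1 follow the erythroid level within and across times (within-time r 0.95 and 0.93), while Nfe2 (0.16) and Gata2 (-0.02) do not within times.

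The 3 genes most like each factor were taken by Pearson's r over the 12 marrow arrays, with no test. Genes named only by a probe, accession, position, Rik clone or predicted gene were passed over. Tal1 was most like Orc1, Traf4 and Nipa1 (0.99 each), with 48 h changes of 0.70, 0.69 and 0.72. The choice by r over these same arrays fixed that likeness of course. Among the genes most like Gfi1b were Armc9 and Car2, carbonic anhydrase (0.99 and 0.98). Klf1 was most like Cdc6, Cpeb4 and Xk (0.98, 0.97 and 0.97), and Gata1 like Smpd4, Cep70 and Gclm (0.98, 0.97 and 0.97). Ldb1 was most like Snx22, Sh3glb1 and Stom (0.97, 0.96 and 0.96), Lmo2 like Atpif1, Rbm38 and Ube2b (0.94, 0.94 and 0.93), and Bcl11a like Anapc1, Tmem41a and Lig1 (0.97, 0.95 and 0.95). Nfe2 was most like Ing5, Snrnp40 and Immt (0.96, 0.95 and 0.95).

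The genes most like Zfpm1, Clcn2, Apol8 and Pitrm1 (0.96, 0.95 and 0.95), had 24 h changes of 1.04, 0.79 and 0.59 and 48 h changes of 1.09, 0.87 and 0.57, a likeness of course that the choice by r fixed. Those most like Gata2, Wdfy4, Micall1 and Inpp5d (0.97, 0.96 and 0.96), had 48 h changes of -0.37, -0.30 and -0.26, none past the adjusted threshold. The choice by r fixed this likeness as well.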

How the data were processed

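Total RNA of liver and bone marrow was labelled with Cy3 and hybridised to single-colour arrays, 1 array per sample, per the labels' protocols. The authors deposited the scanner output of Agilent Feature Extraction 10.10.1.1, whose processed signal is a spot intensity, background-subtracted and detrended within the array, with probe positions on mm9, per the file headers. The authors' deposited log2 table, made with limma per the submitters' processing notes, was used as an alternative: its column medians were 7.74 in every liver and 8.31 in every marrow column, its values correlated at 0.9884 to 0.9929 with the scanner values of the same array, and its centring between tissues is unknown.

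Control spots (3671) and outlier spots (90 to 438 an array) were left out, and 59305 spots gave 56605 probes. No spot was saturated. Log2 intensity was scaled by the 75th percentile of each array. A probe was kept for a tissue if every array of some group read it well above background, and a gene was read from its brightest kept probe. Gene names were taken through RefSeq accessions for 32994 probes, symbols for 10224 and synonyms for 520, and kept from the files for 12867. The main test was limma 3.58.1 (R 4.3.3) with Benjamini-Hochberg adjustment over all genes tested and a threshold of 0.05. Correlations and their permutation tests were computed with numpy 2.4.6, with ranks from scipy 1.17.1. The number of arrays limits the precision. Groups came from the titles of the samples. Named genes are the 10 factors, the 3 genes most like each, up to 3 called members of each list by size, Alb, Apoa1 and Erfe. Of these, 1 gene is not reported here. The factors and lists were chosen with earlier results of these data known. The alternatives were scaling, background correction, filter, probe choice, slide, replicate number, variance model, weights, source of the values and left-out arrays. The fit of every probe on its own and the lists and unadjusted counts without 1 array or without Gfi1b were chosen after seeing the data. The fits were tested on simulated data.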

Additional observations from a re-analysis of the deposited data

How the results depend on the processing

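For the factors in marrow at 48 h, where 1 passed, 2 passed with normexp, 2 with probes above background on every array, 2 with a trended and robust variance, 7 with array weights, and 2 (Klf1 and Tal1) when every kept probe was tested alone, an alternative chosen after seeing the data. No factor passed without the filter on dim probes (0), with the slide as a block (0) or with the replicate block (0), and leaving out 1 array gave 0 to 2. Tal1 at 48 h passed in 16 of 24 alternatives, with a change of 0.55 to 0.69 and an adjusted p of 0.00631 to 0.0858 in limma. The adjusted p was 0.0788 without the filter and 0.0765 with the replicate block. At 24 h the count of factors was 1 with the trended variance (Zfpm1) and 3 with array weights, against 0, and 0 without any 1 array. For the difference between tissues at 48 h it was 1 with normexp (Tal1) and 2 with array weights (Tal1 and Zfpm1), against 0. Over all marrow genes at 48 h, 264 passed, against 116 with the slide block, 100 with the replicate block, 100 without the filter, 123 with the median scaling, 391 with the trended variance and 1565 with array weights. At 24 h 217 passed, against 126 with the replicate block, 142 with the median scaling, 69 without the filter and 772 with array weights.

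Of the factor pairs within times, 23 passed with the median of the array and 8 with normexp, against 14, and 5 to 18 without 1 array. Pooled over times, 34 pairs passed, and 19 to 34 without 1 array. With the erythroid level, 4 factors passed with normexp against 7, and 5 to 7 without 1 array. The cause of these differences was not tested. The counts of factors for 48 h against 24 h in marrow, the 3 liver comparisons and the difference between tissues at 24 h were the same under every alternative run. For marrow against liver at 0 h, 10 passed, except 9 with the authors' deposited values and 7 with probes above background on every array, where the other factors were not tested. The 10 include Gata1, Gfi1b and Bcl11a, whose direction the filter fixed. Of all genes, 39.6% passed in that direction. Of 2360 values of single factors under alternatives, 2310 kept their direction and side of the threshold or moved within 1 SD, 18 came to pass, 8 ceased to (all Tal1 at 48 h), 24 moved by more and 0 reversed a called direction. Same-numbered arrays of different times did not deviate together (12 pairs in marrow, r from -0.23 to 0.20, and 12 in liver, r from -0.17 to 0.14). Between the tissues of a time the 12 same-numbered pairs had r of 0.0032 to 0.15, and 21 of 24 arrays correlated best with their own number, a hint from the data and not the design. The replicate block changed no other call of a factor. Signal over background limits the liver values of Gata1, Gfi1b and Bcl11a.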
